A study of Mus musculus with 6 samples.

Results

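Iron-sulfur cluster assembly was examined through 9 genes in the transcriptomes of mouse CD8+ T cells, the cytotoxic lymphocytes that kill infected and tumor cells. The genes were Isca1, Isca2, Iscu, Nfs1, Glrx5, Nfu1, Bola3, Hscb and Lyrm4. They were found by gene name in the deposited files, each under 1 gene identifier, and they are 9 of the 54446 genes listed there. The genes were grouped by their function, and the choice was made with earlier results of these data known. Levels are in FPKM, fragments per kilobase of transcript scaled to the mapped fragments of the library. All 9 reached the mean of 1 FPKM that was required for testing, and so belong to the 14991 genes tested.

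The study asked how a static magnetic field (SMF) changes CD8+ T cells, and it named Isca1 as a candidate magnetoreceptor gene. All cells came from the spleens of wild type C57BL/6 mice at 8 weeks of age and were isolated by negative selection. The Unstimulated group held 2 libraries of fresh cells. The Control group held 2 libraries of cells kept for 72 h without magnets on plates coated with antibodies to CD3 and CD28, which stimulate T cells, and the SMF group 2 libraries of cells stimulated in the same way for 72 h on 0.3 T magnets. Nothing in the labels says that the 2 libraries of a group came from different mice, so p values measure the spread between libraries, which may be technical. In bulk RNA, fewer cells expressing a gene and less RNA of it per cell cannot be told apart.

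Iron-sulfur clusters are small cofactors of iron and sulfur atoms that carry electrons in respiration and hold the active sites of many enzymes. In mitochondria the cysteine desulfurase Nfs1, stabilized by the small subunit Lyrm4, releases sulfur from cysteine, and a new cluster is built on the scaffold protein Iscu. The co-chaperone Hscb and its partner Hspa9 move the cluster off the scaffold to the glutaredoxin Glrx5. The A-type proteins Isca1 and Isca2, together with the late factors Nfu1 and Bola3, serve the making and delivery of the larger clusters used by lipoate synthase, aconitase and the respiratory chain. T cells that respond to antigen grow and divide, and they draw on mitochondrial enzymes and on DNA polymerases and primases that hold such clusters.

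The depth of the libraries was uneven. The sequence aligned to annotated transcripts came to between 64.4 and 259 Mb per library, and the sum over the 9 assembly genes to 4.10 and 11 kb in the Unstimulated libraries, 4.78 and 15.4 kb in the Control libraries and 54.2 and 33.1 kb in the SMF libraries. Of the 54 values of the assembly genes, 24 rested on under 1 kb of aligned sequence and 8 were listed at 0. A listing at 0 was not taken as absence, since 286 and 435 of the 6923 protein-coding genes whose mean reached 5 FPKM were also listed at 0 in replicate 1 of Control and Unstimulated. Folder dates in the file headers were June 2017 for replicate 1 and November 2017 for replicate 2 of both Unstimulated and Control, and October 2018 for both SMF libraries. Wherever SMF is compared with another group, field and date therefore cannot be told apart. In the SMF libraries protein-coding genes held 68.7% to 69.2% of all FPKM and 49.1% to 50.5% in the others, and genes annotated as antisense held 12.3% to 12.8% in the SMF libraries and 19.5% to 24.7% in the others.

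RefSeq promoter windows on GRCm38.p6 were matched for 7 of the 9 genes. The 250 bases before the annotated start are shown for Isca1, the candidate magnetoreceptor gene, and for Nfs1 and Nfu1, the 2 genes that passed the test between SMF and Control below. All 3 are written 5′ to 3′ on the strand of the gene, at chr13:59769790-59770039 on the minus strand for Isca1, chr2:156144187-156144436 on the minus strand for Nfs1 and chr6:87009586-87009835 on the plus strand for Nfu1. Capitals mark a match, on either strand, to GCGCA and GCGC parted by 1 base of any kind, the letters bound by the factor NRF1, or to CCGGAAGT, letters bound by factors of the ETS family. NRF1 and the ETS factor GABP are known regulators of nuclear genes for mitochondrial proteins.
Isca1: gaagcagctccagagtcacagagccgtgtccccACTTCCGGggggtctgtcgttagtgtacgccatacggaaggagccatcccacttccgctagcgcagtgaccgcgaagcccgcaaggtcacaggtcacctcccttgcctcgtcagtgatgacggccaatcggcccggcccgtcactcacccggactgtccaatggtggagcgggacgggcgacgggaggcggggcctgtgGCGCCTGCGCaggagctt
Nfs1: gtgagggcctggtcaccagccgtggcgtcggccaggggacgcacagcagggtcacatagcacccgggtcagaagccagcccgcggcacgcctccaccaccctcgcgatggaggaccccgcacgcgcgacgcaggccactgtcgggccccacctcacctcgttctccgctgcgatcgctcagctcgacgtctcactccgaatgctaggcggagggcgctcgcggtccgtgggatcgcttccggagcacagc
Nfu1: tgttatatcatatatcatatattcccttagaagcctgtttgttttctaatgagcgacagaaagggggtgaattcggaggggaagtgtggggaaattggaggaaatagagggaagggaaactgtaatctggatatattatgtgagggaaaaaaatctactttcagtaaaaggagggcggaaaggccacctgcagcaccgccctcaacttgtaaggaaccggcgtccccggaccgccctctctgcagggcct
The Isca1 window held both sets of letters. The NRF1 letters lay 9 to 18 bases before the RefSeq start and the ETS letters 210 to 217 bases before it. The 2 matches did not overlap. The Isca1 coding transcript measured here, ENSMUST00000057115.6, begins further upstream, at 59769810 inside the window, so the NRF1 letters lie within its span. The Nfu1 window likewise lies inside the span of its gene, since the transcript ENSMUST00000120240.7 begins at 87009236. Over all 32851 windows of the same length, 3.74% held the NRF1 letters, 2.88% the ETS letters and 0.244% both. The windows of Nfs1, Nfu1, Isca2, Glrx5, Lyrm4 and Bola3, which has 3 windows, held neither, which says only that these letters do not stand there. The dinucleotide CG occurred 23 times in the Isca1 window, 30 times in that of Nfs1 and 8 times in that of Nfu1, beside a median of 6 over all windows.

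The genes of cluster building were low in most libraries. Nfs1 (ENSMUSG00000027618.17, chromosome 2, 156123639 to 156144186 on the minus strand) was measured at 1.16 and 1.09 FPKM in Unstimulated, 1.60 and 5.95 in Control and 14.4 and 9.27 in SMF, and the 3 groups did not overlap. Its subunit Lyrm4 (ENSMUSG00000046573.7, chromosome 13, 35978395 to 36117526 on the minus strand) stayed between 1.23 and 4.01 FPKM in all 6 libraries, and the groups overlapped. It was measured at 1.5 and 2.43 FPKM in Unstimulated, 3.02 and 1.23 in Control and 1.92 and 4.01 in SMF. The scaffold gene Iscu (ENSMUSG00000025825.12, chromosome 5, 113772748 to 113778288 on the plus strand) was listed at 0 and 8.00 FPKM in Unstimulated, 0 and 3.19 in Control and 7.79 and 2.08 in SMF. On the scale log2(FPKM + 1) its replicates lay further apart in every group than any pair of its group means. Both of its 0 listings fell in the libraries of June 2017. The co-chaperone gene Hscb (ENSMUSG00000043510.12, chromosome 5, 110829070 to 110839777 on the minus strand) was listed at 0 in both Unstimulated libraries, at 0 and 6.16 FPKM in Control and at 2.73 and 2.23 in SMF. The highest Hscb value therefore came from Control, between whose libraries both SMF values lay.

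The genes of late delivery were higher as FPKM sums over all transcripts of a gene, a scale that takes transcript length into account. Isca2 and Bola3 were so only with transcripts that have no coding annotation, since their coding transcripts did not exceed 4.89 and 6.10 FPKM in any library. The carrier gene Glrx5 (ENSMUSG00000021102.4, chromosome 12, 105032688 to 105042906 on the plus strand) was low like those above, at 0 and 2.12 FPKM in Unstimulated, 0 and 4.10 in Control and 7.16 and 3.37 in SMF, and SMF overlapped Control. Isca1 (ENSMUSG00000044792.7, chromosome 13, 59755409 to 59769810 on the minus strand) was measured at 3.71 and 7.29 FPKM in Unstimulated, 11.2 and 7.47 in Control and 19 and 11.7 in SMF. Its 3 groups did not overlap, but the lower Control library exceeded the higher Unstimulated library, and the lower SMF library the higher Control library, by a small margin only. Its relative Isca2 (ENSMUSG00000021241.7, chromosome 12, 84773251 to 84775088 on the plus strand) was measured at 8.2 and 4.01 FPKM in Unstimulated, 11.8 and 2.94 in Control and 22.5 and 13.3 in SMF. For Isca2, Control enclosed Unstimulated, and both SMF libraries lay above the other 4.

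Of the late factors, Nfu1 (ENSMUSG00000029993.16, chromosome 6, 87009236 to 87028461 on the plus strand) was measured at 7.53 and 10.1 FPKM in Unstimulated, 0 and 6.60 in Control and 15.4 and 23.2 in SMF. It alone among the 9 had both Control libraries below both Unstimulated libraries. Bola3 (ENSMUSG00000045160.14, chromosome 6, 83349147 to 83360136 on the plus strand) had the highest mean of the 9 over the 6 libraries, 17.2 FPKM. It was measured at 8.47 and 10.4 FPKM in Unstimulated, 21.7 and 12.0 in Control and 34.1 and 16.6 in SMF, so that the lower SMF library lay within the range of Control. In SMF the values of Bola3, Nfu1, Isca2, Isca1 and Nfs1 were all at or above 9.27 FPKM and their ranges overlapped from each gene to the next in this order, while no value of Iscu, Glrx5, Lyrm4 or Hscb exceeded 7.79 FPKM. Replicates were at least 2-fold apart on the scale log2(FPKM + 1) for 2 of the 9 genes in Unstimulated, 6 in Control and 1 in SMF, beside 32.6%, 32.6% and 19% of all genes tested.

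**Figure D1:**
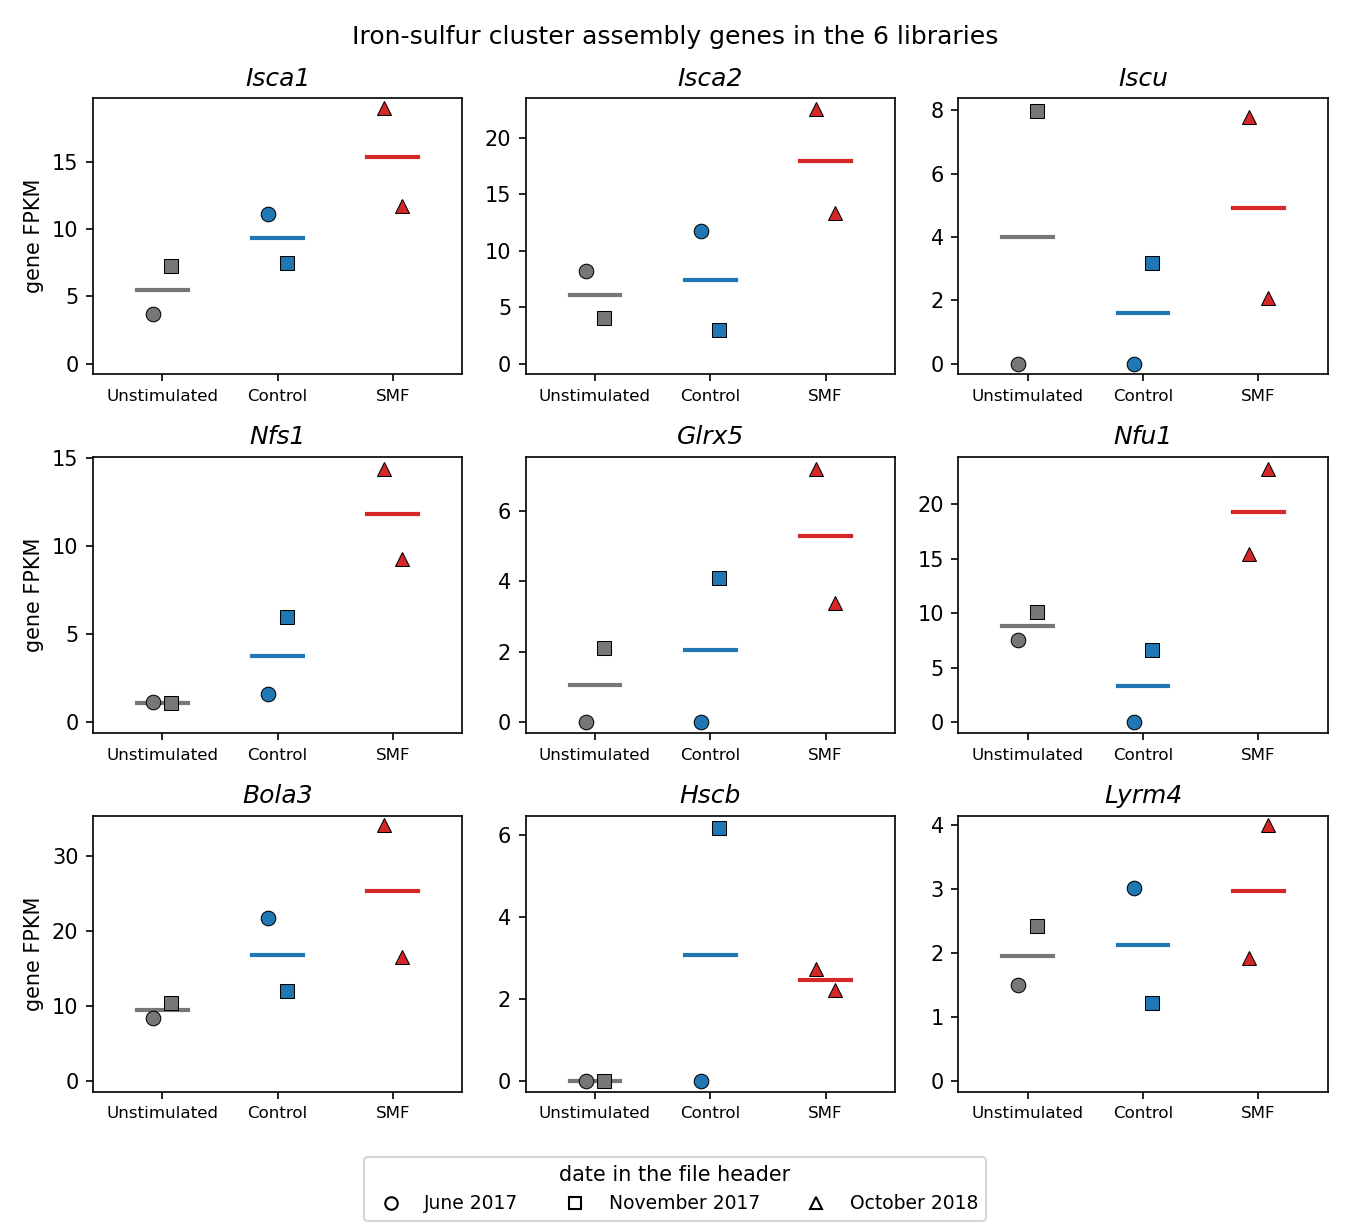
Gene FPKM of the 9 iron-sulfur cluster assembly genes, on a linear axis per gene, in the 2 libraries of each group; bars are group means and the shape of a point gives the date in the file header. Nfs1 and Isca1 rank Unstimulated, Control, SMF with no overlap, while the circles of June 2017 stand at 0 for Iscu, Glrx5 and Hscb.

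The comparison of SMF with Control asks what the field added to stimulation. Mean log2(FPKM + 1) was higher in SMF for 9 of the 9 assembly genes, beside 60.2% of all genes tested, while 36.5% of all genes were lower. All 9 have protein-coding transcripts, whereas the genes tested include other kinds, and protein-coding genes as a class held more of the FPKM in SMF. The shares of protein-coding genes alone that were higher or lower in mean were not computed. For 2 of them the difference passed the thresholds of the study, at least 2-fold with a p, not adjusted, of at most 0.05, here in the two-sided test of limma, a linear model fitted to log2(FPKM + 1) of all tested genes. By the same thresholds 12.5% of all genes tested were higher in SMF and 5.72% lower. Nfu1, which delivers clusters to lipoate synthase, rose by 2.85 ± 0.94 (SE) on the log2 scale with an unadjusted p of 0.0221 and an adjusted p of 0.186 in limma. The desulfurase gene Nfs1 rose by 1.57 ± 0.63 with an unadjusted p of 0.0468 and an adjusted p of 0.233 in limma. Fold changes on this scale understate the change of low genes. The value of Nfu1 rests in part on its listing at 0 in Control replicate 1, and with 0.1 FPKM added in place of 1 its fold change was 4.54 ± 1.92 with an unadjusted limma p of 0.0602.

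The other 7 genes did not pass. The difference for Isca1 was 0.65 ± 0.50 on the log2 scale, with a 95% interval from -0.56 to 1.86 and an adjusted p of 0.479 in limma. That for Isca2 was 1.37 ± 0.69, with an interval from -0.31 to 3.05 and an adjusted p of 0.311 in limma. These intervals include both no difference and a difference larger than 2-fold, so at this replication neither can be told from the other. The remaining differences were 1.40 ± 1.0 for Glrx5, 1.35 ± 1.27 for Iscu, 0.53 ± 0.49 for Bola3, 0.37 ± 0.99 for Hscb and 0.36 ± 0.62 for Lyrm4. With the replicate number as a block, limma's unadjusted p was 0.0312 for Isca2, which then passed, and 0.0618 for Nfs1, which then did not.

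The values of both SMF libraries exceeded those of both Control libraries for Isca1, Isca2, Nfs1 and Nfu1, 4 of the 9, beside 37.4% of all genes tested, and fell short of them for 0 of the 9, beside 17.4%. After Benjamini-Hochberg adjustment over all genes tested 0 of the 9 had a limma p under 0.05, beside 0.0267% of all genes, and at an unadjusted p under 0.05 there were 2, beside 21.1%. The median log2 fold change was 1.35 over the 9 genes and 0.32 over all genes tested, which are not all protein-coding. With 1 FPKM sum over protein-coding genes in each library these medians were 1.06 and 0.05. With all libraries shifted to 1 median the median fold change was 1.0 over the 9 and -0.02 over all genes, and all 9 differences were still above 0. In that setting 1 gene, Nfu1, passed the thresholds, beside 5.85% of all genes higher and 9.61% lower. Pairs of single libraries gave uneven counts. Of the 9 genes, 5 and 6 were at least 2-fold higher in SMF replicate 1 than in Control replicates 1 and 2, beside 31.7% and 22.8% of all genes. In SMF replicate 2 it was 5 and 3, beside 30.9% and 21.1%. Hscb alone was at least 2-fold lower in one of these pairs, SMF replicate 2 against Control replicate 2.

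Both calls were lost when 1 library was left out of the fit, which also leaves limma fewer residual degrees of freedom and, for a group with 1 library left, takes that library to vary like the other groups. That of Nfs1 was lost without any 1 library other than Control replicate 2, with log2 fold changes from 0.86 without Control replicate 1 to 1.86 without SMF replicate 2. That of Nfu1 was lost without either SMF or either Unstimulated library, with fold changes from 2.57 to 3.13 in these fits. It was kept without either Control library, but its fold change was 1.39 once Control replicate 1 was left out, and with replicate 2 left out in its place the remaining Control library was listed at 0. Without Control replicate 1 Isca2 passed, at 2.22 with an unadjusted limma p of 0.0292, and without Control replicate 2 Hscb passed, with an unadjusted limma p of 0.00991 against a Control library listed at 0. Genes listed for CD8 T cells also differed, of which Cd3d, Cd3e and Cd3g are genes of T cells in general. The summed FPKM of Cd8a, Cd8b1, Cd3d, Cd3e and Cd3g was 271 and 441 in Control and 748 and 629 in SMF. Of the 5, 2 passed as higher in SMF, Cd8a at 2.01 and Cd3d at 1.40 on the log2 scale. The other CD8 chain, Cd8b1, differed by 0.24 and its groups overlapped. Of 4 B cell genes 1 passed as lower, and of 4 myeloid genes 1 as higher. The part of these differences in the results for the assembly genes was not tested.

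**Figure D2:**
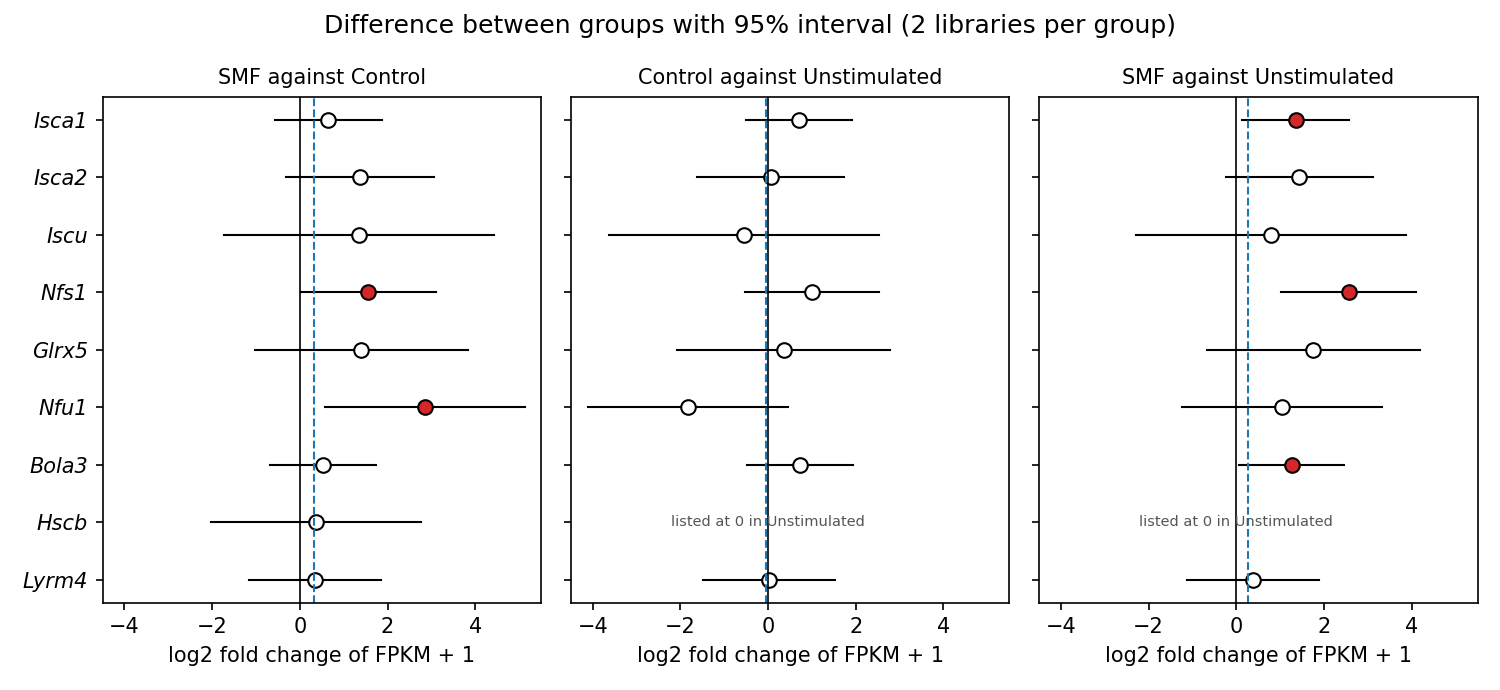
Log2 fold change of FPKM + 1 with its 95% interval from limma for each assembly gene in the 3 comparisons; red points passed the thresholds, and the dashed line is the median of all genes tested. Hscb has no fold where Unstimulated was listed at 0, and all intervals for Control against Unstimulated include 0.

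The comparison of Control with Unstimulated asks what 72 h of stimulation did without magnets. By the same thresholds 0 of the 9 assembly genes passed in limma, beside 12.3% of all genes higher and 12.6% lower, 0 had an unadjusted p under 0.05, beside 26.9%, and 0 had an adjusted p under 0.05, beside 8.48%. Means were higher in Control for 7 of the 9, beside 47.8% of all genes, and lower for Iscu and Nfu1, beside 51.5%. Both Control libraries lay above both Unstimulated libraries for Isca1, Nfs1 and Bola3, beside 24.8% of all genes, and below them for Nfu1, beside 26.6%. The median difference was 0.36 over the 9 genes, or 0.21 over the 8 without Hscb, which was listed at 0 in Unstimulated, and -0.05 over all genes tested.

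Isca1 differed by 0.70 ± 0.50 on the log2 scale, with a 95% interval from -0.51 to 1.91, and Nfs1 by 1.0 ± 0.63, with an interval from -0.54 to 2.53. Bola3 differed by 0.73 ± 0.49 and Nfu1 by -1.82 ± 0.94, the latter with an adjusted limma p of 0.281. The remaining values were 0.06 ± 0.69 for Isca2, 0.03 ± 0.62 for Lyrm4, 0.36 ± 1.0 for Glrx5 and -0.55 ± 1.27 for Iscu. The signs for Isca2 and Lyrm4 turned with TPM, a related unit scaled to the sum over all transcripts, in place of FPKM, and with 1 FPKM sum over protein-coding genes in each library. In this comparison each header date held 1 library of each group. Within June 2017 the difference was 1.37 for Isca1, 0.27 for Nfs1, 1.26 for Bola3 and -3.09 for Nfu1, and within November 2017 it was 0.03, 1.73, 0.20 and -0.55 for the same genes in that order. The difference of Isca1 between the groups thus lay almost wholly in the June pair. That of Bola3 lay mostly in the June pair and that of Nfs1 mostly in the November pair, while Nfu1 was lower in both. In fits with 1 Control library left, whose spread is taken from the other groups, calls differed. Without Control replicate 1, Nfs1 passed as higher at 1.71 with an unadjusted limma p of 0.0332 and Hscb passed as well, and without Control replicate 2, Nfu1 passed as lower, with an unadjusted limma p of 0.00351 and its remaining Control library listed at 0.

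Markers of other cells moved with this comparison. The summed FPKM of a list of 4 B cell genes, among them Ms4a1, Cd79a and Cd79b, was 142 and 103 in Unstimulated, 23.3 and 7.63 in Control and 4.50 and 2.43 in SMF, and 4 of the 4 passed as lower in Control. The myeloid genes were Lyz2, Itgam, Csf1r and Cd68. Their summed FPKM was 126 and 150 in Unstimulated, 47.0 and 53.8 in Control and 47.5 and 51.4 in SMF. In Control this sum was Csf1r alone, the other genes being listed at 0, and in SMF Csf1r held 41.1 and 50.4 FPKM of it. Csf1r stood at 68.5 and 63.9 FPKM in Unstimulated and did not pass, while the other 3 of the 4 passed as lower in Control. Lyz2 was listed at 0 in all 4 stimulated libraries. Of 6 erythroid genes, Hbb-bs and Hbb-bt were listed at 0 in all 6 libraries, and the summed FPKM of the list lay between 1.51 and 21.8, mostly from Alas2. The summed level of the CD8 T cell genes was 521 and 632 FPKM in Unstimulated, and the CD4 gene Cd4 did not exceed 4.68 FPKM in any library. The part of these cells in the values of the assembly genes was not tested.

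The comparison of SMF with Unstimulated spans stimulation, field and header date together, and it shares its libraries with the comparisons above. By the same thresholds 3 of the 9 were higher in SMF than in Unstimulated, beside 22.4% of all genes tested, and 0 were lower, beside 14.8%. Nfs1 rose by 2.56 ± 0.63 on the log2 scale and was the 1 assembly gene with an adjusted limma p under 0.05, at 0.0343, beside 23.6% of all genes. Isca1 rose by 1.35 ± 0.50 with an unadjusted p of 0.0343 and an adjusted p of 0.0983 in limma, and Bola3 by 1.26 ± 0.49 with an unadjusted p of 0.0424 and an adjusted p of 0.114. Both SMF libraries lay above both Unstimulated libraries for 7 of the 9 genes, all but Iscu and Lyrm4, beside 39.7% of all genes, and below them for 0, beside 26%. The 3 that passed were also the 3 with an unadjusted limma p under 0.05, beside 39.1% of all genes. The median difference was 1.35 over the 9 genes, 1.31 without Hscb, and 0.27 over all genes.

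The values that did not pass were 1.76 ± 1.0 for Glrx5, 1.44 ± 0.69 for Isca2, 1.03 ± 0.94 for Nfu1, 0.79 ± 1.27 for Iscu and 0.39 ± 0.62 for Lyrm4. Nfs1 was at or near 1 FPKM in both Unstimulated libraries, on 0.215 and 0.389 kb of aligned sequence, and at 14.4 and 9.27 FPKM in SMF on 9.08 and 4.99 kb. The call of Nfs1 was lost without either Unstimulated library or SMF replicate 1, with fold changes between 2.27 and 2.59 and unadjusted limma p values between 0.0548 and 0.0581. That of Isca1 was lost without any 1 library other than Unstimulated replicate 2 and that of Bola3 without any 1 library other than SMF replicate 2, with fold changes down to 0.94 for Isca1 without Unstimulated replicate 1 and 0.76 for Bola3 without SMF replicate 1. With all libraries shifted to 1 median, neither Isca1, at 1.10, nor Bola3, at 1.01, passed, and Nfs1 did. With the replicate block Isca2 passed as well, with an unadjusted limma p of 0.0264.

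A gene's FPKM was the sum over its annotated transcripts, and these were of different kinds. For 5 of the genes, namely Nfs1, Glrx5, Iscu, Lyrm4 and, in SMF, Nfu1, protein-coding transcripts held at least 82.9% of the gene's FPKM wherever it was above 0. For Isca1 the coding transcript ENSMUST00000057115.6 was listed at 0 in Unstimulated replicate 1 and at 5.91 FPKM in replicate 2, at 7.89 and 5.55 in Control and at 10.3 and 9.08 in SMF, so that the Isca1 values of SMF stayed above those of Control on the coding transcript. The single-exon retained-intron transcript ENSMUST00000225795.1 added 8.14 FPKM to Isca1 in SMF replicate 1 and 1.10 in replicate 2. The 2 SMF libraries differed more in this transcript than in the coding one.

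For Isca2 and Bola3, transcripts without a coding annotation, chiefly retained introns, held most of the FPKM in all libraries but 1 each, Control replicate 2 for Isca2 and Unstimulated replicate 2 for Bola3. The coding transcripts of Isca2 were listed at 0 in replicate 1 of Unstimulated and of Control, at 1.79 and 1.71 FPKM in replicate 2 of these groups, and at 4.45 and 4.89 in SMF. The SMF values of Isca2 stayed above those of Control on these transcripts too. The coding transcripts of Bola3 were at 1.95 and 6.10 FPKM in Unstimulated, 0.603 and 2.49 in Control and 3.98 and 5.29 in SMF, so that the order of Unstimulated and Control was turned. Both SMF values lay within the range of Unstimulated. On these transcripts Bola3 differed by 0.29 on the log2 scale between SMF and Unstimulated, and its call in that comparison was lost. In Control replicate 1, 97.2% of the Bola3 value came from the retained-intron transcript ENSMUST00000151329.7, and in SMF replicate 1, 82.9% came from another, ENSMUST00000055875.13.

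Different transcripts carried Hscb in the groups. Its value in Control replicate 2 came wholly from the coding transcript ENSMUST00000056937.11, while that transcript was at 0 and 0.232 FPKM in SMF, where a retained-intron transcript held the rest. With protein-coding transcripts alone, the difference between SMF and Control was therefore -1.27 ± 0.96 for Hscb. For Nfu1 coding transcripts held 89.4% and 82.9% of the value in SMF, 100% in Unstimulated replicate 1, 27.0% in Unstimulated replicate 2 and 25.4% in Control replicate 2. On coding transcripts alone Nfu1 passed as lower in Control than in Unstimulated, with a log2 fold change of -1.79 and an unadjusted limma p of 0.0389, beside 10.5% of the 9559 genes tested in this way. Between SMF and Control 1 assembly gene, Nfu1, passed on coding transcripts, beside 17.7% of these genes. Iscu used different coding transcripts in different libraries. ENSMUST00000026937.11 held 93.6% of its value in Unstimulated replicate 2 and 83.3% in SMF replicate 1, and was listed at 0 in the other libraries.

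**Figure D3:**
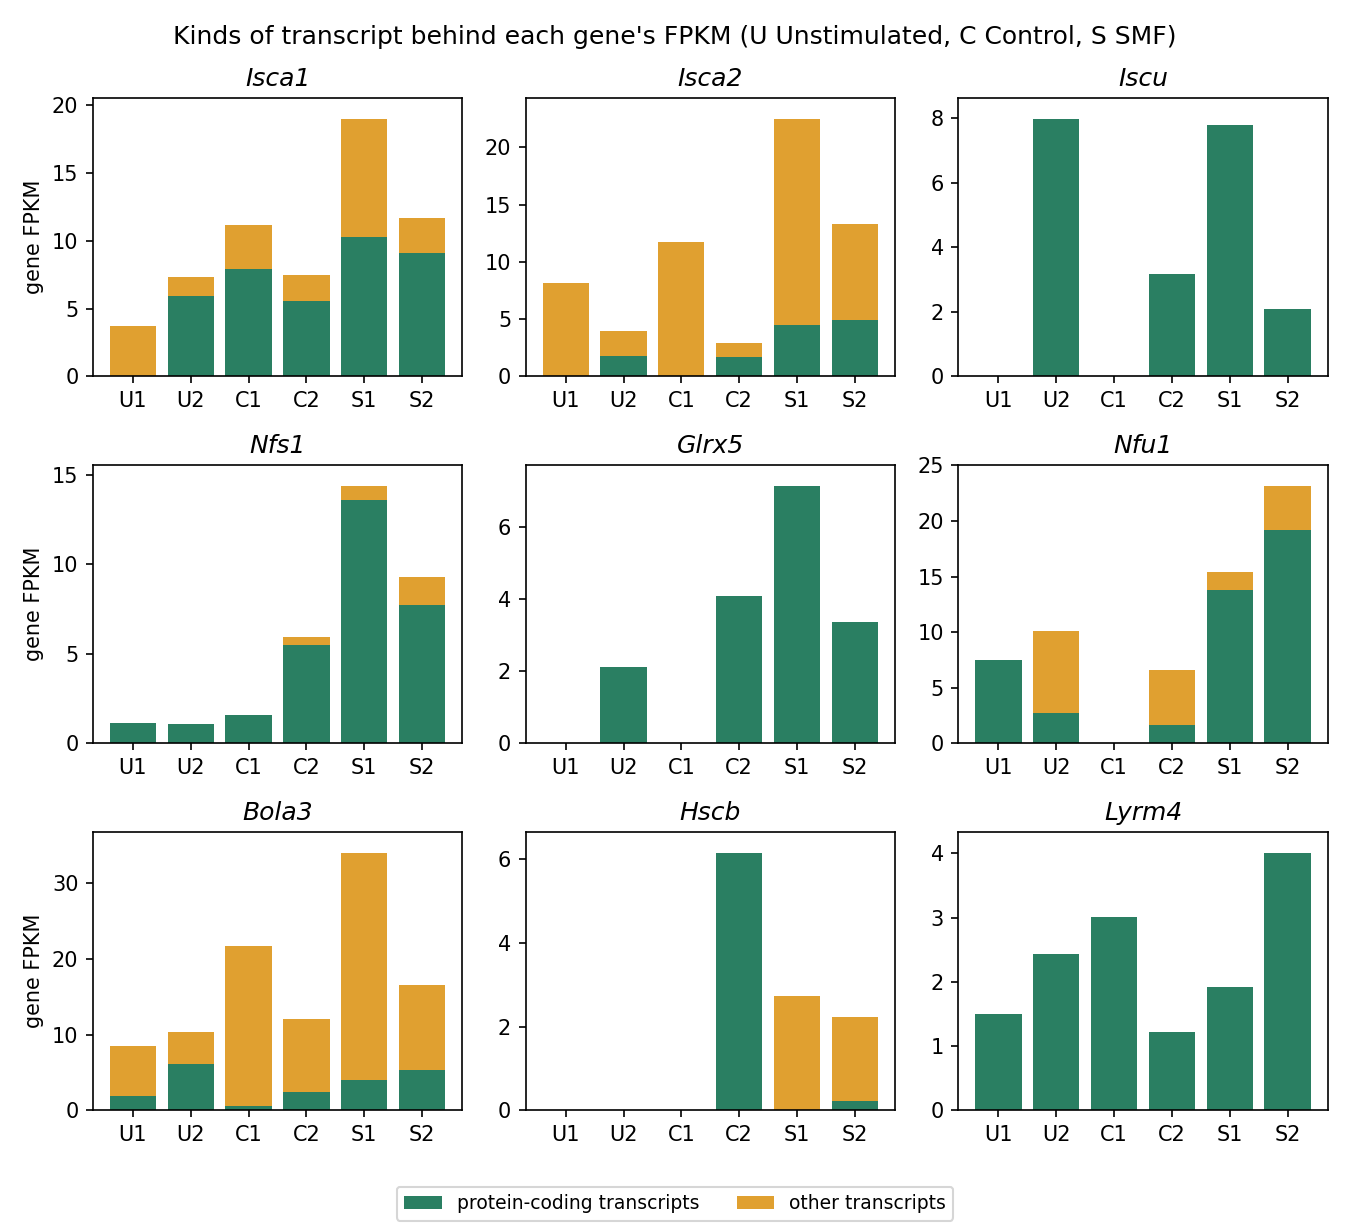
Gene FPKM of each assembly gene in the 6 libraries, split into protein-coding and other annotated transcripts, on a linear axis from 0 per gene (U Unstimulated, C Control, S SMF). Other transcripts make up most of Isca2 and Bola3 in several libraries and nearly all of Hscb in SMF, whereas Nfs1, Glrx5, Iscu and Lyrm4 are almost wholly coding.

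Several assembly genes share sequence or position with other annotated genes. Exons of Isca1 face exons of the antisense gene Etohd2 over 314 bases. Etohd2 was measured at 312 and 180 FPKM in Unstimulated, 187 and 140 in Control and 31.1 and 85.5 in SMF. Genes annotated as antisense were also lower in SMF as a class, at 12.3% to 12.8% of all FPKM beside 19.5% to 24.7% in the other libraries. A relation between Etohd2 and Isca1 was not tested. Lyrm4 faces Fars2 over 115 bases, and Fars2, a mitochondrial phenylalanyl-tRNA synthetase, stood at 20.5 and 22.9 FPKM in Unstimulated and between 1153 and 2244 FPKM in the stimulated libraries, while Lyrm4 did not exceed 4.01. Nfs1 faces Romo1 over 148 bases, and Romo1 was measured at 0 and 12.2 FPKM in Unstimulated, 9.75 and 32.0 in Control and 39.7 and 20.1 in SMF. On its own strand Nfs1 shares 256 bases with Gm28036, which lay between 7.15 and 15.3 FPKM with overlapping groups. Gm28036 stood at 7.15 and 14.9 FPKM in Unstimulated, 15.3 and 7.76 in Control and 8.43 and 9.49 in SMF. It lay above Nfs1 in every library other than SMF replicate 1. The quantification was run with its strand option on, and reads from the wrong strand cannot be recognized in these files.

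A coding transcript of Isca1 aligned to the gene AK157302 over 1914 bases at 99.0% identity, so that reads of the 2 cannot be separated with certainty. AK157302 was listed between 0.385 and 1.67 FPKM, below Isca1 in every library. Iscu matched the pseudogene Gm16437 over 504 bases at 98.4% identity and Nfu1 the pseudogene Gm7859 over 771 bases at 95.7%, and these pseudogenes did not exceed 1.90 and 0.211 FPKM. Bola3 matched Gm16276 over 265 bases at 94.3%, and Gm16276 reached 13.3 FPKM in Unstimulated replicate 2, above Bola3 in that library. Nfs1 matched a transcript of Gm28036, the gene with which it shares bases, over 258 bases at 100% identity. The values of Isca1, Iscu, Nfu1, Bola3 and Nfs1 are uncertain to this extent, since how reads matching several genes were shared out is not given in the sources used here.

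The partners of the assembly genes were followed with lists of related genes. Of 14 mitochondrial partners 12 were tested, and 4 passed as higher and 0 as lower in SMF against Control, with a median log2 fold change of 1.28, beside the 12.5% and 5.72% of all genes. Hspa9, the chaperone that works with Hscb, was measured at 23.0 and 41.5 FPKM in Unstimulated, 77.9 and 92.8 in Control and 220 and 252 in SMF. It rose by 1.43 ± 0.34 in Control against Unstimulated and by 1.46 ± 0.34 in SMF against Control, with adjusted limma p values of 0.0561 and 0.144, and its groups did not overlap in either comparison. The reductase gene Fdxr and the acyl carrier gene Ndufab1, whose protein binds Lyrm4, did not pass in any comparison, and the ferredoxin gene Fdx1l passed in SMF against Unstimulated, where Unstimulated was listed at 0.

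In the cytosolic assembly pathway 1 gene passed as higher and 1 as lower of 11 tested in SMF against Control, with a median of 0.83. The higher gene was Nubp2 of the scaffold complex, at 0 and 5.77 FPKM in Control and 25.0 and 25.6 in SMF, and the lower gene was Mms19 of the targeting complex, at 11.6 and 46.8 in Control and 4.40 and 4.31 in SMF. Of 15 mitochondrial proteins that hold clusters, 4 passed as higher and 0 as lower, with a median of 1.22, among them Lias, the lipoate synthase that Nfu1 serves, at 1.98 ± 0.57 and Ndufv1 of complex I at 1.86 ± 0.37. Of 19 tested cytosolic and nuclear iron-sulfur proteins 4 passed as higher and 0 as lower, with a median of 1.24, beside 12.5% and 5.72% of all genes, among them the tRNA-modifying enzyme Tyw1 and the ribosome recycling factor Abce1. In lipoate synthesis and lipoylated proteins, 3 of 7 passed as higher, among them Lias and the glycine cleavage gene Gcsh at 1.55 ± 0.53, and 1 as lower, the lipoyltransferase Lipt1 at -1.15 ± 0.34. Iron handling gave 2 of 9 as higher, the ferritin heavy chain Fth1 at 1.10 ± 0.23 and the iron regulatory protein Ireb2 at 1.13 ± 0.45. The smallest adjusted limma p in these 6 lists was 0.136 in SMF against Control. With all libraries shifted to 1 median, 2 genes passed as higher and 0 as lower among the mitochondrial partners, 1 and 1 in cytosolic assembly, 3 and 0 of the mitochondrial and 1 and 1 of the cytosolic and nuclear iron-sulfur proteins, 1 and 1 in the lipoate list and 0 in iron handling, beside 5.85% and 9.61% of all genes.

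Stimulation without magnets was also followed in these lists. In Control against Unstimulated, 2 of 12 mitochondrial partners passed as higher and 0 as lower, 4 and 1 of 11 in cytosolic assembly, 3 and 0 of 15 mitochondrial and 3 and 0 of 19 cytosolic and nuclear iron-sulfur proteins, 2 and 1 of 7 in the lipoate list and 1 and 3 of 9 in iron handling, beside 12.3% and 12.6% of all genes. The transferrin receptor Tfrc, which brings iron into the cell, stood at 2.32 and 3.01 FPKM in Unstimulated and 82.7 and 106 in Control, a rise of 4.69 ± 0.30 with an adjusted limma p of 0.0052. The iron exporter Slc40a1 stood at 21.3 and 16.5 FPKM in Unstimulated and was listed at 0 in all 4 stimulated libraries, and the heme oxygenase Hmox1 fell by 4.02 ± 0.62 on the log2 scale. Both genes are abundant in macrophages. Of the myeloid genes, Lyz2 stood at 42.4 and 74.0 FPKM in Unstimulated and was listed at 0 in all 4 stimulated libraries. Itgam and Cd68 also passed as lower in Control, while Csf1r did not, at 68.5 and 63.9 FPKM in Unstimulated and 47.0 and 53.8 in Control. The part of myeloid cells in the falls of Slc40a1 and Hmox1 was not tested. Among enzymes that hold clusters, the DNA polymerase Pole rose by 3.02 ± 0.68 and the primase subunit Prim2 was listed at 0 in Unstimulated and at 13.8 and 3.94 FPKM in Control. In the partner lists, the sulfhydryl oxidase Gfer rose by 2.21 ± 0.58 and the cytosolic glutaredoxin Glrx3 by 2.30 ± 0.84, while Ciao1 of the targeting complex fell by 1.37 ± 0.46. The electron donor gene Ndor1 of the cytosolic pathway rose by 3.33, the complex I gene Ndufs8 by 2.38, Gcsh by 2.02 and the lipoylated pyruvate dehydrogenase subunit Dlat by 1.88 on the log2 scale, Lipt1 fell by 1.40 and Fth1 by 1.28, and Cisd3 was listed at 0 in Unstimulated and at 12.2 and 2.91 FPKM in Control. The SMF libraries against Unstimulated gave 4 and 0, 5 and 1, 10 and 0, 15 and 0, 4 and 1, and 1 and 2 in the same order of lists, beside 22.4% and 14.8% of all genes.

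**Figure D4:**
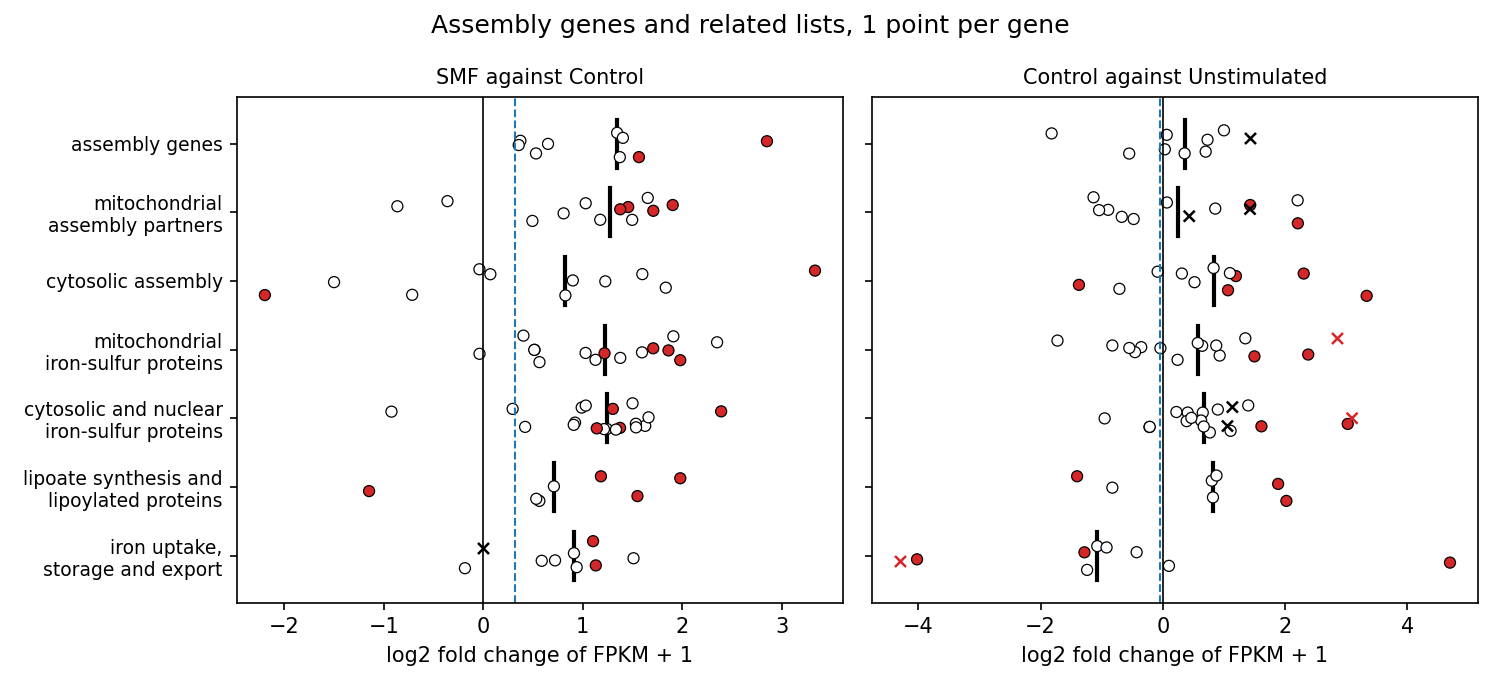
Log2 fold change of FPKM + 1 for each tested gene of the assembly genes and 6 related lists, in SMF against Control (left) and Control against Unstimulated (right); thick bars are list medians, red marks passed the thresholds, crosses are genes listed at 0 in at least 1 of the groups and the dashed line is the median of all genes. Every list median lies right of the dashed line on the left, and iron handling is the 1 list with a median below 0 on the right.

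Over the 6 libraries, the genes whose log2(FPKM + 1) followed that of Isca1 most closely, among the 9393 genes whose mean reached 5 FPKM, were Dcaf7, Inf2 and Pfdn4. Pearson's r was 0.994 for Dcaf7, 0.986 for Inf2 and 0.984 for Pfdn4, and 53 of the 9393 genes had an r above 0.95. Dcaf7 was measured at 5.63 and 10.3 FPKM in Unstimulated, 16.7 and 12.0 in Control and 25.0 and 16 in SMF. Like Isca1 it was higher in replicate 1 than in replicate 2 of Control and SMF and lower in replicate 1 of Unstimulated. The 6 points share groups, header dates and depth, and r is given as a description.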

How the data were processed

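Total RNA of 6 libraries was sequenced after preparation with a stranded kit. Per the submitters' processing notes, Trimmomatic 0.36, HISAT2 and StringTie were used. The deposited transcript files carry headers of StringTie 1.3.5, run on GENCODE M19 models of GRCm38 without the assembly of transcripts outside them, and the authors thereby gave FPKM, TPM and mean coverage per transcript, in an attribute text that holds these other values side by side. A whole-series table, with 3 columns that match no sample, was not used. Counts of reads were not among the values used, so depth is given as aligned sequence, coverage times length.

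FPKM was summed over the transcripts of each gene. limma 3.58.1 in R 4.3.3 was fitted to log2(FPKM + 1) of the 14991 of 54446 genes that reached a mean of 1 FPKM. The fit held all 3 groups, with a variance trend, 3 residual degrees of freedom and two-sided tests. Benjamini-Hochberg adjustment ran over all genes tested. Genes passed at a fold change of at least 2 with an unadjusted p of at most 0.05. The fit was tested on simulated data. Gene types came from GENCODE M21, in which 54409 gene identifiers matched and 37 did not. Overlaps were found with bedtools 2.31.1 and copies with minimap2 2.31, keeping alignments of at least 200 bases. The related genes named were direct partners and, from each list, the 2 largest rises and 2 largest falls that passed and whose mean reached 5 FPKM, and some genes under this rule are not reported here. The members, lists and rules were chosen with earlier results of these data known. Replicate numbers were not taken to pair libraries. Alternatives changed the pseudocount, filter, scaling, unit, variance model, samples, block, transcripts and libraries.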

Additional observations from a re-analysis of the deposited data

How the results depend on the processing

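Between SMF and Control 2 of the 9 assembly genes passed. There were 0 with a pseudocount of 0.1 FPKM and with only the 2 groups compared in the fit, and 1 with a pseudocount of 5, with no filter on low values, with a mean of at least 5 FPKM, with libraries shifted to 1 median, with 1 FPKM sum over protein-coding genes and with protein-coding transcripts only, the last an alternative chosen after seeing the data. Leaving out single libraries gave 0 to 3. The median log2 fold change of 1.35 was set beside a replicate spread of 0.75, the pooled SD of the libraries' medians over the 9 genes on log2(FPKM + 1). This spread is wide, so staying within it does not show that the median is stable. The median moved further than this only with a pseudocount of 5, to 0.57, a setting that itself shrinks fold changes of low genes. Without single libraries it ran from 0.75 to 1.79. Between Control and Unstimulated 0 passed, 1 with protein-coding transcripts only, and 0 to 2 without single libraries. Between SMF and Unstimulated 3 passed, 1 with libraries shifted to 1 median, with 1 FPKM sum over protein-coding genes and with protein-coding transcripts only, and 0 to 2 without single libraries. The cause of these moves was not tested. In the related lists, SMF against Control gave 1 to 6 genes passing among the mitochondrial partners without single libraries, 0 to 4 in cytosolic assembly, 1 to 6 mitochondrial and 1 to 5 cytosolic and nuclear iron-sulfur proteins, 1 to 4 in the lipoate list and 1 to 2 in iron handling. With 1 FPKM sum over protein-coding genes it gave 2, 2, 3, 1, 2 and 0, and with the replicate block 2 partners and 7 mitochondrial iron-sulfur proteins. Without the filter, limma warned that most residual variances were 0, so its prior is unreliable there.

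Single genes turned in direction in few settings. With protein-coding transcripts only, SMF against Control gave -1.27 for Hscb, and Control against Unstimulated gave -0.023 for Isca2 and -0.95 for Bola3. Control against Unstimulated gave -0.0674 for Isca2 and -0.0673 for Lyrm4 with 1 FPKM sum over protein-coding genes, and -0.0774 and -0.0829 with gene TPM. Without single libraries, SMF against Control ran from -1.05 to 1.79 for Hscb and from -0.0694 to 0.78 for Lyrm4. Control against Unstimulated ran from -0.82 to 1.53 for Glrx5, -0.79 to 0.91 for Isca2, -2.14 to 1.03 for Iscu and -0.39 to 0.46 for Lyrm4, and SMF against Unstimulated from -0.79 to 2.38 for Iscu and -0.0013 to 0.78 for Lyrm4.

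With the replicate number as a block, 2 assembly genes passed between SMF and Control, Nfu1 and Isca2, 0 between Control and Unstimulated and 4 between SMF and Unstimulated. The deviations of libraries with the same number correlated at 0.0963 between Unstimulated and Control across genes. They correlated at 0.0301 between Unstimulated and SMF and 0.0206 between SMF and Control, so the numbers were not taken to pair the libraries. In Unstimulated and Control the number goes with the header date, while both SMF libraries share 1 date, so the block does not follow date in SMF. The main fit holds no term for date. With 2 libraries a group and under 1 kb of aligned sequence behind 24 of the 54 values, differences of the lower genes Iscu, Glrx5, Hscb and Lyrm4 smaller than their intervals were not detectable at this depth.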
